A study of Rattus norvegicus with 13 samples.

Results

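Skin-derived precursors (SKPs) of facial skin were compared with SKPs of dorsal trunk skin, as 3 arrays against 3 of the 13 in the series. The arrays were assigned by their titles, with no measured value used. SKPs are dermal cells that grow as floating spheres, and all came from adult Sprague Dawley rats and had been passaged 2 times. Each array held RNA of 1 isolate that the study's design calls independent, and 3 arrays of ventral trunk SKPs and 4 of mesenchymal stromal cells (MSCs) from adult rats entered the same statistical fit. No genotype or treatment is given for any group; the sources used here do not give sex, age beyond adult, animals per isolate or culture medium. These were bulk cultures, in which fewer cells of a type and less RNA per cell cannot be told apart.

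Dermis has several embryonic sources. The dermis of the face comes largely from the cranial neural crest, a migratory population that leaves the border of the neural plate, whereas the dermis of the back comes from somites, the segmented mesoderm beside the neural tube. Position along the trunk is laid down by Hox genes, homeobox transcription factors kept in 4 chromosomal clusters and read out in order along the body axis, while the neural crest of the anterior face forms without Hox expression. Adult fibroblasts are known to keep part of such a positional pattern in culture. The series title asks whether a dermal precursor with neural crest character arises alike from skin of different origins, and facial against dorsal SKPs is the contrast between a neural crest and a somite origin.

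Levels are log2 RMA values, 1 probe set per gene for 14506 genes, and differences are facial minus dorsal on the same log2 scale, so that 1 unit is 2-fold. A gene counts as called where limma gave a Benjamini-Hochberg adjusted p below 0.05, and errors of differences are standard errors (SE) of that fit. Background was set by 1105 olfactory receptor genes, whose 90th percentile was 3.55 in facial and 3.59 in dorsal SKPs. Levels of different genes come from different probes and are not compared with each other.

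The largest differences between facial and dorsal SKPs were those of Mab21l1, Vcam1 and Pax3, higher in facial SKPs, and of Zic1, Adgrl4 and Hoxa5 among the called genes lower there. Of the 14506 genes, 182 were called (1.25%), 115 of them higher in facial SKPs (0.793%) and 67 lower (0.462%). Among these, 89 were higher and 38 lower by at least 2-fold, and all of the 89 and 38 had facial arrays that did not overlap the dorsal arrays. Without regard to the test, the 3 facial arrays lay above all dorsal arrays for 1022 genes (7.05%) and below them for 1500 (10.3%), and the median difference over all genes was -0.037.

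**Figure D1:**
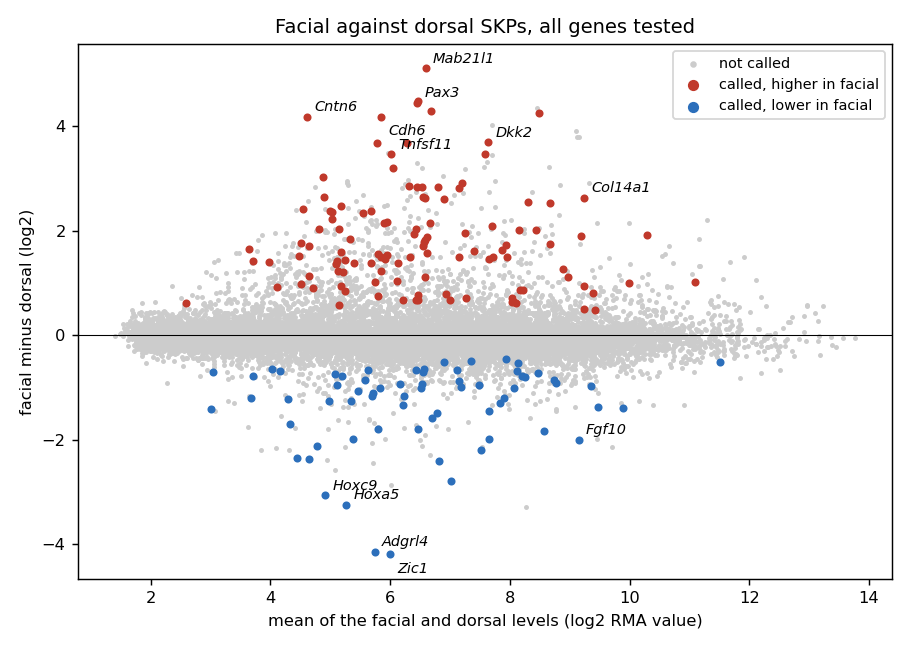
Difference between facial and dorsal SKPs (vertical axis, log2) against the mean of both levels (horizontal axis, log2 RMA value), 1 point per gene. Grey points were not called, red points are the 115 genes called higher and blue points the 67 called lower in facial SKPs, and Mab21l1 (5.11) and Zic1 (-4.20) mark the ends of the range.

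The arrays of a region were not equally alike. Dorsal array 3 differed by over 2-fold from the other dorsal arrays at 9.55% and 7.67% of genes, and facial array 3 from the other facial arrays at 4.23% and 4.05%. Without dorsal array 3, 145 genes were called (1%), 83 higher (0.572%) and 62 lower (0.427%). Without facial array 3, 94 were called (0.648%), 68 higher (0.469%) and 26 lower (0.179%). Without both, 99 were called (0.682%), 62 higher (0.427%) and 37 lower (0.255%). The count of lower genes was 41 without facial array 2 and 139 without dorsal array 2. A fit of the 6 arrays alone called 43 genes (0.296%). These included 3 Hox genes, 3 genes of the neural crest list and 1 gene each from the Wnt, guidance, cytokine and neuronal lists, but none from the other lists that had called members in the full fit. Called in the full fit and again when any single array or both arrays numbered 3 were left out were 41 higher and 21 lower genes.

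Several gene lists moved with these arrays. Macrophage and leukocyte markers (26 measured, none called) had mean levels of 7.79, 6.27 and 10.04 in facial arrays 1, 2 and 3, and of 7.15, 4.97 and 4.11 in dorsal arrays 1, 2 and 3. All 26 had the higher mean in facial SKPs, with a median difference of 2.73. But only Cd68, a lysosomal protein of macrophages, had facial arrays above all dorsal ones, against 7.05% of all genes. The median was 1.56 without facial array 3, 2.12 without dorsal array 3 and 1.11 without both. Without facial array 2, 6 of the 26 were called higher, against 108 of all 14506 genes. Without dorsal array 1, 9 of the 26 were called higher, against 149 of all 14506 genes. Fibrillar matrix genes (21 measured) averaged 10.20 to 10.25 in facial arrays and 10.22, 10.15 and 8.45 in the dorsal arrays. Hypoxia and glycolysis genes (34 measured, none called) averaged 10.01 in dorsal array 3 against 8.85 to 8.93 in the other arrays, and cell cycle genes (28 measured, none called) 5.09 against 6.32 to 7.29. The part of leukocyte content or of these arrays in the results below was not tested, and values without the arrays are given where a call was lost.

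**Figure D2:**
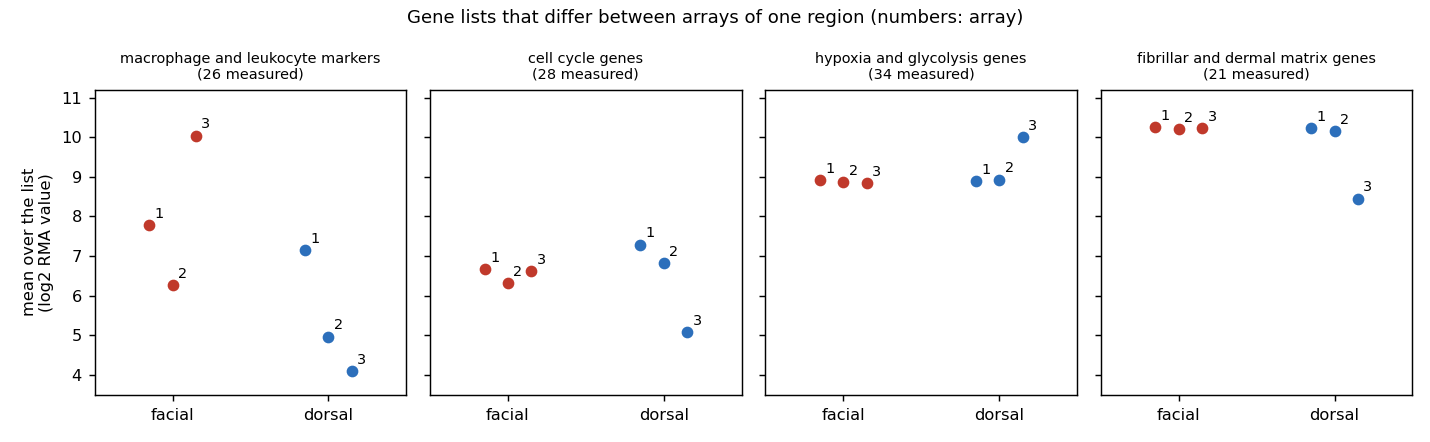
Mean level of 4 gene lists in each array (vertical axis, log2 RMA value; red, facial; blue, dorsal; the number at a point is the array). Leukocyte markers range from 6.27 to 10.04 in facial and from 4.11 to 7.15 in dorsal arrays, and dorsal array 3 stands apart from the other dorsal arrays in the other lists.

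Hox genes were lower in facial SKPs or not called. Of 22 Hox genes measured, 7 fell and none rose, against 0.462% of all genes called lower. Among the anterior Hox genes, 5 of 11 fell (Hoxa5, Hoxc5, Hoxc4, Hoxd4 and Hoxb4), and the median difference of the 11 was -0.63. All 11 had the lower mean in facial SKPs, 7 of them without overlap, against 10.3% of all genes. The central genes (1 of 3, Hoxa7) and the posterior genes (1 of 8, Hoxc9) had medians of -0.10 and -0.17.

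Hoxa5, a factor of the neck and upper trunk, had levels of 3.47, 3.83 and 3.63 in facial arrays and of 6.85, 6.76 and 7.06 in dorsal arrays. The facial arrays lay close to background and far below every dorsal array, and Hoxa5 had the smallest adjusted p of the comparison (difference -3.25, SE 0.16; limma adjusted p 3.19e-06). Leaving out any single array, or both arrays numbered 3, kept its difference between -3.34 and -3.15. Hoxc9, a factor of the thoracic trunk, read 3.60, 3.14 and 3.41 in facial and 6.36, 6.46 and 6.52 in dorsal arrays. The facial mean was below background, so dorsal SKPs were at least 7.44-fold higher, taking the dim side at background (measured difference -3.07, SE 0.22; adjusted p 2.18e-05). Ventral SKPs, trunk cells like the dorsal ones, had means of 7.18 for Hoxa5 and 7.02 for Hoxc9.

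The neighbouring genes of the C cluster, Hoxc4 and Hoxc5, moved with Hoxc9. Hoxc4 was at 5.0, 4.95 and 4.73 in facial and 6.69, 6.75 and 6.62 in dorsal arrays (-1.80, SE 0.16; adjusted p 0.000135). Hoxc5 was at 3.08, 3.95 and 4.12 against 6.04, 5.84 and 5.64 (-2.12, SE 0.35; adjusted p 0.0126). Neither gene's arrays overlapped, and the facial Hoxc5 mean of 3.72 was close to background.

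The remaining called Hox genes differed by less. Hoxa7 differed by -1.26 (SE 0.16; adjusted p 0.00332), Hoxd4 by -0.75 (SE 0.10; adjusted p 0.00437) and Hoxb4 by -0.70 (SE 0.14; adjusted p 0.0397). The dorsal SD was 0.24 for Hoxa7, 0.02 for Hoxd4 and 0.09 for Hoxb4, and in each gene all facial arrays were below all dorsal arrays. The Hoxb4 call was lost without facial array 1 (adjusted p 0.109), facial array 3 (0.123) or any one of the dorsal arrays (0.0519 to 0.0996), and 4 to 6 of the 11 anterior genes were called when single arrays were left out. Hoxb7 and Hoxb8, measured above background, differed by -0.10 and 0.11 and were not called, and Hoxb9 was below background in both groups.

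**Figure D3:**
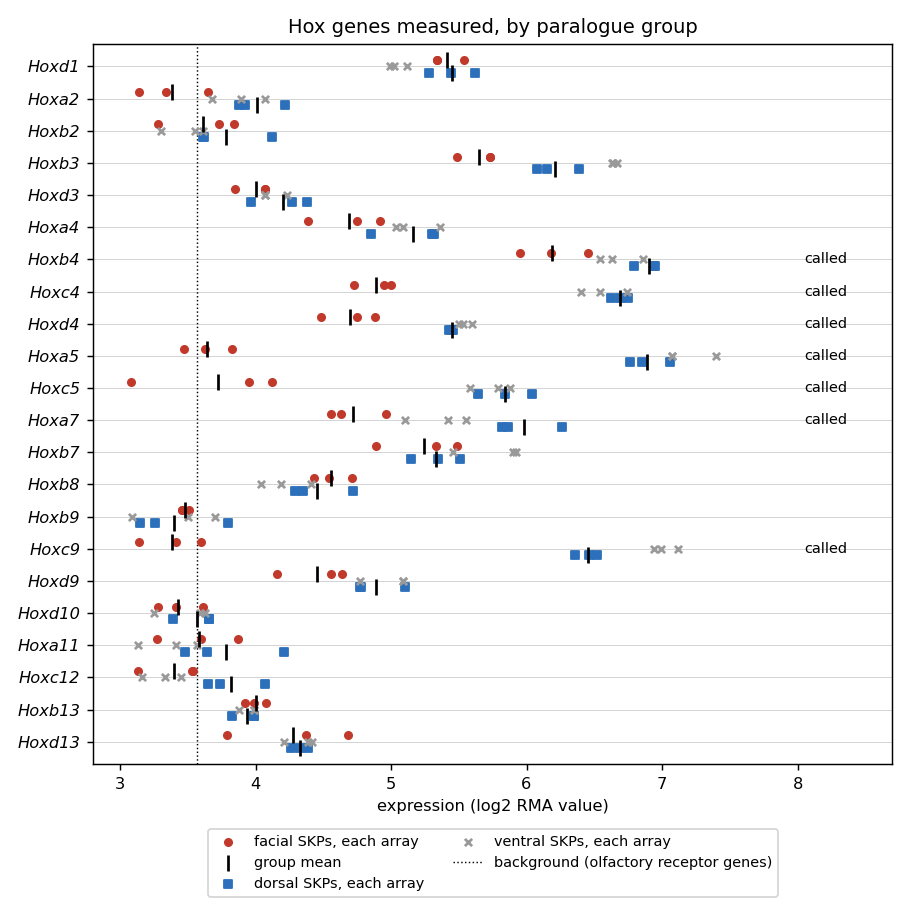
Level of the 22 Hox genes measured (horizontal axis, log2 RMA value) in each facial (red), dorsal (blue) and ventral (grey) array, ordered by paralogue group, with group means as black bars and background as a dotted line. The 7 genes marked as called have facial arrays to the left of the dorsal arrays, and Hoxa5 and Hoxc9 sit near background in facial but not in dorsal or ventral arrays.

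Hox proteins bind DNA together with Meis and Pbx factors. Of the 7 cofactor genes measured, only Meis1 was called and it fell, against 0.462% of all genes called lower. It was at 7.57, 7.45 and 7.68 in facial and 8.33, 8.55 and 8.87 in dorsal arrays (-1.02, SE 0.20, limma adjusted p 0.0310). No arrays overlapped, but the Meis1 call was lost when any facial array (adjusted p 0.0783 to 0.0891), dorsal array 2 (0.0556) or dorsal array 3 (0.0935) was left out. Its paralogue Meis2 differed by 0.81 and was not called (adjusted p 0.41).

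Promoters were available for 41 of the 57 called genes named by the rule, from RefSeq on assembly GRCr8, as 300 bases around the start. The promoters of 2 genes higher in facial SKPs and of 2 Hox genes lower in facial SKPs are printed as examples. Each example holds a match to a motif given below, whereas most of the 41 promoters hold none, among them Pax3 and Hoxa7. The examples hold only part of the matches counted next. Capitals mark matches on either strand to TAATTA, the homeodomain core, to TGACAG, the Meis core, or to AGGTCA, a nuclear receptor motif (TGACCT and CTGTCA are the opposite-strand readings). Mab21l1 is at chr2:142093368-142093667 on the plus strand, Cdh6 at chr2:63952238-63952537 on the minus strand, Hoxc4 at chr7:136048809-136049108 and Hoxd4 at chr3:80021636-80021935, both on the plus strand.
Mab21l1: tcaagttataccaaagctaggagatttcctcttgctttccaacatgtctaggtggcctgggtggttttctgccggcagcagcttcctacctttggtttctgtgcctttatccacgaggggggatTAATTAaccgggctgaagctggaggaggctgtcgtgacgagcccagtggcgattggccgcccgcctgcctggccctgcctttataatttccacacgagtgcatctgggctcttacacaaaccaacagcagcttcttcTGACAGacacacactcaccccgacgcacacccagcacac
Cdh6: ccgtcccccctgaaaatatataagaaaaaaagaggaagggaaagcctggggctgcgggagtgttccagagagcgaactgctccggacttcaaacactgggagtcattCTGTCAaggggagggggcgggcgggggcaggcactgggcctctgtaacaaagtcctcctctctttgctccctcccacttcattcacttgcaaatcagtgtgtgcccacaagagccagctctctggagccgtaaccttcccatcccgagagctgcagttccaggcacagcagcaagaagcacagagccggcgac
Hoxc4: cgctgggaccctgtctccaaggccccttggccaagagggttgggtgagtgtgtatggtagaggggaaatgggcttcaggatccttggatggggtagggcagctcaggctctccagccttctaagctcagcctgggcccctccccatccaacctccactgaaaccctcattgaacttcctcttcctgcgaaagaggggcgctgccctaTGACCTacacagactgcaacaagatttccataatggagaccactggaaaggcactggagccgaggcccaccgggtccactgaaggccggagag
Hoxd4: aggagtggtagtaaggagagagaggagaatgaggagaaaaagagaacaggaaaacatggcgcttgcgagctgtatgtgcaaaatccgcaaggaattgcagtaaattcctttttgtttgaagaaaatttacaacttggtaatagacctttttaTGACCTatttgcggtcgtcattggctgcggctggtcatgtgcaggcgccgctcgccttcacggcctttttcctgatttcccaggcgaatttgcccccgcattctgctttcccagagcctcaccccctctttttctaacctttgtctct

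Among all 33469 RefSeq promoters of this length, 5.36% held TAATTA, 19.0% TGACAG and 16.2% AGGTCA. Unlike the named genes, that set was not limited to genes with 1 promoter entry. Of the 31 higher genes with a promoter, 1 held the homeodomain core, 6 the Meis core and none the nuclear receptor motif. The 6 were Mab21l1, Vcam1, Cdh6, Frmd4b, Scin and Areg. Of the 10 lower genes, none held the homeodomain core, 1 (Adgrg2) the Meis core and 4 the nuclear receptor motif. The 4 were Adgrg2, Cdh7, Hoxc4 and Hoxd4. A match is a run of letters in this window and not a measured binding site.

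Among neural crest genes, Pax3 and Cdh6 were high in facial SKPs and near background in dorsal SKPs. Of 15 neural crest factors measured, Pax3 and Cdh6 rose, Zic1 fell and 12 were not called, with a median difference of 0.06. Of all genes, 0.793% were called higher and 0.462% lower. Pax3, a paired-box factor of neural crest and of early somites, was at 8.50, 9.20 and 8.34 in facial and 3.85, 4.32 and 4.53 in dorsal arrays. Every facial array was above every dorsal array by a wide margin (4.45, SE 0.30; 21.8-fold; limma adjusted p 1.09e-05), and ventral SKPs had a mean of 4.02. Cdh6, a cadherin of neural crest cells, was at 7.68, 8.30 and 7.82 against 3.71, 3.66 and 3.93 (4.17, SE 0.24; 18.0-fold; adjusted p 5.7e-06). The dorsal arrays were near background, as was the ventral mean of 4.22.

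Zic1, a zinc-finger factor of the dorsal neural tube, neural crest border and dorsal somites, had the opposite pattern. It was at 3.97, 4.14 and 3.60 in facial arrays and 7.53, 8.25 and 8.53 in dorsal arrays. Facial SKPs were near background, as were ventral SKPs (mean 3.91) and MSCs (mean 3.99), so dorsal SKPs stood alone among the 4 groups (-4.20, SE 0.23; 18.4-fold; adjusted p 3.88e-06). Zic4, the neighbouring gene on the chromosome, was named after its values were seen and differed by -0.79 (SE 0.14; adjusted p 0.0197), with dorsal arrays at 3.77, 4.45 and 4.11. The Zic4 call was lost without facial array 1 (0.0537), facial array 3 (0.0842) or dorsal array 3 (0.0518).

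The 12 other crest factors were not called, and their differences ran from -0.91 for Tfap2c to 1.22 for Tfap2b. Snai2 (0.60), Snai1 (0.61), Ets1 (0.48), Tfap2a (-0.63), Twist1 (-0.13), Ngfr (0.19), Zic2 (-0.15), Rxrg (0.06), Foxd3 (0.04) and Sox10 (-0.03) lay between Tfap2c and Tfap2b. Of all 15 factors, 4 had facial arrays above all dorsal arrays and 2 below, against 7.05% and 10.3% of all genes. Those not called among them were Tfap2c (limma adjusted p 0.147), Tfap2b (0.234) and Ets1 (0.131). Tfap2b was at 6.47, 4.06 and 4.73 in facial and 3.74, 3.87 and 3.99 in dorsal arrays.

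Some factors that pattern the jaws and midface were higher in facial SKPs, but most had the lower mean there. Of 17 craniofacial factors measured, 3 rose and none fell, against 0.793% and 0.462% of all genes, the median difference was -0.14, and none was called with the 6 arrays alone. Msx1, a homeobox factor of the jaw and tooth primordia, was at 8.61, 7.62 and 7.38 in facial and 5.54, 4.93 and 5.21 in dorsal arrays (2.64, SE 0.27; adjusted p 0.00049). Alx1, needed for the midface, was at 6.93, 5.90 and 5.81 against 4.02, 3.97 and 3.59 (2.35, SE 0.28; adjusted p 0.00154), the latter close to background. Neither gene's arrays overlapped. Lhx6, a LIM homeobox factor of the first arch, was at 6.80, 7.09 and 6.26 against 5.13, 5.32 and 5.13 (1.53, SE 0.18; adjusted p 0.00149). Their relatives Msx2 (-0.54), Alx4 (-0.83) and Lhx8 (0.83) were not called, nor was Pax9 (-1.16). Of the 17 factors, 6 had the higher mean in facial SKPs. Facial arrays lay above all dorsal arrays for 3, against 7.05% of all genes. They lay below all dorsal arrays for 4 (Dlx3, Dlx4, Msx2 and Pax9), against 10.3% of all genes.

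Of the 12 members of the somite and dorsal dermis list, which does not include Zic1, Meox2 and Tbx15 rose and none fell (median 0.07). The shares over all genes were 0.793% and 0.462%. Meox2, a homeobox factor of the somite, was at 6.01, 5.12 and 6.14 in facial and 3.85, 3.59 and 2.57 in dorsal arrays. The dorsal mean was below background, so facial SKPs were at least 4.49-fold higher (measured difference 2.42, SE 0.41; adjusted p 0.0130), and the call was lost without facial array 3 (adjusted p 0.0635). Ventral SKPs (mean 5.63) and MSCs (mean 8.40) also had Meox2. Tbx15, a T-box factor of dorsal dermis and coat patterning, differed by 0.87 (SE 0.17; adjusted p 0.0322), with facial arrays at 8.41, 8.88 and 8.66 and dorsal arrays at 7.54, 7.78 and 8.01. These did not overlap, but the Tbx15 call was lost without facial array 2 (adjusted p 0.0974), facial array 3 (0.107), dorsal array 1 (0.082) or dorsal array 2 (0.0588). En1 was not measured.

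Of 18 lateral plate and limb factors, 3 rose and none fell (median 0.12), against 0.793% and 0.462% of all genes. Nr2f1, a nuclear receptor also known in cranial neural crest, was at 7.17, 7.37 and 7.66 in facial and 5.67, 5.44 and 6.36 in dorsal arrays (1.57, SE 0.22; adjusted p 0.00482). Tbx3 differed by 1.5 (SE 0.31; adjusted p 0.0426), and its call was lost without any one of the facial arrays (adjusted p 0.073 to 0.133), dorsal array 1 (0.101) or dorsal array 3 (0.114). Osr2, a factor of palate and limb mesenchyme, differed by 0.75 (SE 0.16; adjusted p 0.0472), and its call was lost without any one of the facial arrays (0.103 to 0.120) or dorsal array 3 (0.0846).

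The largest difference of the whole comparison was that of Mab21l1, a gene of eye and craniofacial development. It was at 9.15, 9.51 and 8.78 in facial arrays and at 4.09, 4.10 and 3.93 in dorsal arrays. The groups were separated by over 4 units (5.11, SE 0.38; 34.5-fold; limma adjusted p 2.28e-05), and the difference was between 4.93 and 5.29 with any single array or both arrays numbered 3 left out. It was not a mark of facial against trunk SKPs, since ventral SKPs had a mean of 9.34 (facial minus ventral -0.20, SE 0.38, adjusted p 0.828). Its paralogue Mab21l2 was at 7.20, 8.12 and 7.65 in facial and 4.50, 4.59 and 4.26 in dorsal arrays (3.21, SE 0.23; adjusted p 1.59e-05), with a ventral mean of 4.52. Both paralogues were higher in facial than in dorsal SKPs, and ventral SKPs were near the facial mean for Mab21l1 and near the dorsal mean for Mab21l2.

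The 15 largest differences toward facial SKPs included the adhesion genes Cntn6 and Vcam1 and the junction gene Cldn10. Cntn6, an immunoglobulin-family adhesion molecule of neurons, was at 5.55, 7.25 and 7.30 in facial and 2.61, 2.60 and 2.37 in dorsal arrays. All dorsal arrays were below background, so facial SKPs were at least 8.65-fold higher (adjusted p 0.000122). Vcam1, a ligand for leukocyte integrins, was at 7.43, 9.70 and 8.97 against 4.13, 4.45 and 4.10. The facial arrays spread widely but none came near the dorsal ones (4.48, SE 0.61; 22.3-fold; adjusted p 0.00437), and without both arrays numbered 3 the adjusted p was 0.0508. Cldn10, a tight junction protein, was at 7.91, 5.76 and 5.49 against dorsal arrays of 3.22, 3.74 and 3.12, which gave at least 6.94-fold (adjusted p 0.0106).

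The dorsal counterpart was Cdh7, a cadherin of trunk neural crest and spinal cord, at 5.26, 5.72 and 5.86 in dorsal and 2.87, 3.58 and 3.32 in facial arrays. Dorsal SKPs were at least 4.18-fold higher (measured difference -2.36, SE 0.23; adjusted p 0.000329), and the ventral mean of 3.03 was also below background. Of these cadherins, Cdh6 was high in facial SKPs and Cdh7 in dorsal SKPs.

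Adgrl4, an adhesion receptor best known from blood vessel endothelium, was at 4.12, 3.4 and 3.49 in facial and 7.80, 7.38 and 8.28 in dorsal arrays (-4.15, SE 0.27; 17.8-fold; adjusted p 1.09e-05). Ventral SKPs lay between facial and dorsal SKPs with a mean of 6.02. Endothelial markers as a list (13 measured, none called) averaged 4.79 to 5.02 in facial and 4.40 to 4.85 in dorsal arrays. The list had a median difference of 0.14, and 9 members had the higher mean in facial SKPs. Differences ran from -0.28 for Plvap to 0.90 for Tie1. Only Eng (0.76) had facial arrays above all dorsal ones, against 7.05% of all genes. Tfpi, an inhibitor of the coagulation pathway made by endothelium, was at 5.70, 5.53 and 5.63 against 8.16, 7.93 and 8.0 (-2.41, SE 0.26; adjusted p 0.00091).

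Tnfsf11, the ligand that drives osteoclast formation (RANKL), was at 7.63, 7.92 and 7.69 in facial and 4.70, 4.29 and 3.83 in dorsal arrays (3.47, SE 0.21; 11.1-fold; adjusted p 6.43e-06). Facial SKPs stood above ventral SKPs (mean 4.02) and MSCs (mean 3.89) as well. Reln, a secreted guide of migrating neurons, was at 8.14, 7.92 and 8.34 against 4.71, 4.27 and 4.37 (3.68, SE 0.57; adjusted p 0.00909), and the adjusted p was 0.0875 without both arrays numbered 3. Scin, an actin-severing protein, differed by 2.91 (SE 0.47; adjusted p 0.0111).

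Itm2a, Il1rl1, Frmd4b and Ptprn had large differences, each with a call that was lost when arrays were left out. Itm2a, a membrane protein, was at 8.25, 9.25 and 9.03 in facial and 6.26, 4.72 and 2.64 in dorsal arrays (4.30, SE 0.82; adjusted p 0.0267). Il1rl1, the interleukin-33 receptor, was at 10.03, 11.40 and 10.39 against 8.25, 7.08 and 3.72 (4.26, SE 0.88; adjusted p 0.0420). In both genes dorsal array 3 was the lowest, as it was for the leukocyte, fibrillar matrix and cell cycle lists. Any link of these genes to those lists was not tested. The Itm2a call was lost without facial array 2 (adjusted p 0.077), facial array 3 (0.0956) or dorsal array 3 (0.0534), and the Il1rl1 call without facial array 1 (0.0719), 2 (0.113) or 3 (0.113). Without dorsal array 3 the Il1rl1 difference was 2.94 (adjusted p 0.0193). Frmd4b, a cytoskeletal scaffold, was at 7.14, 7.37 and 8.32 against 5.17, 3.75 and 2.88 (3.67, SE 0.56; adjusted p 0.00863; 0.0705 without both arrays numbered 3). Ptprn, a protein of secretory granules, differed by 3.47 (SE 0.62; adjusted p 0.0199), and its call was lost without facial array 2 (0.0679), facial array 3 (0.0647) or dorsal array 3 (0.0691).

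**Figure D4:**
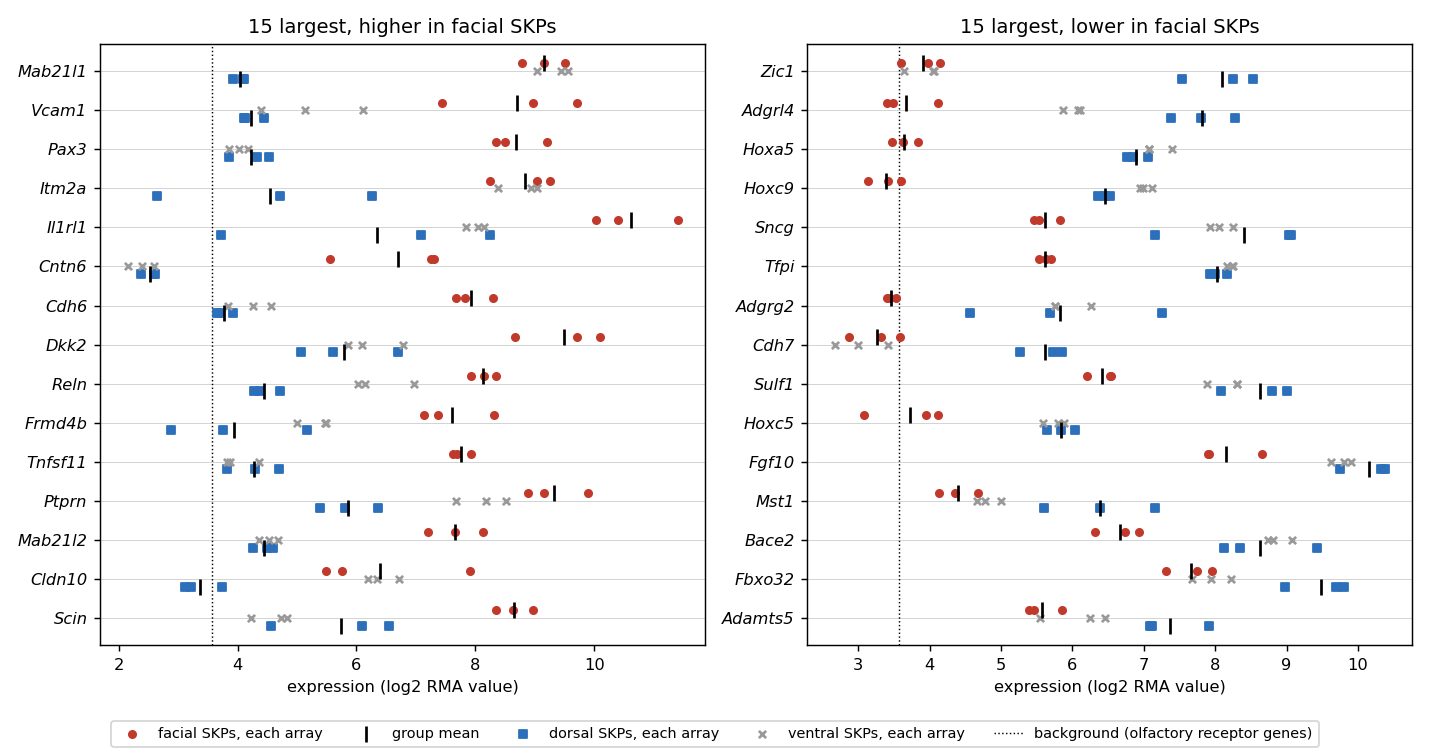
Level of the 15 genes per direction that differed most (horizontal axes, log2 RMA value) in each facial (red), dorsal (blue) and ventral (grey) array, with facial and dorsal means as black bars and background as a dotted line. Facial and dorsal arrays overlap for none of these genes, which the naming rule required. Ventral SKPs side with facial SKPs for Mab21l1 and with dorsal SKPs for Hoxa5.

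Sulf1, Adamts5, Fbxo32 and Mst1 were among the 15 largest differences toward dorsal SKPs. Sulf1, which trims sulphate from heparan sulphate and so alters growth factor signalling, was at 6.54, 6.21 and 6.52 in facial and 9.0, 8.80 and 8.08 in dorsal arrays (-2.20, SE 0.27; adjusted p 0.00196). Adamts5, which cleaves versican and aggrecan, was at 5.39, 5.86 and 5.46 against 7.09, 7.12 and 7.91 (-1.80, SE 0.26; adjusted p 0.00529). Fbxo32, a ubiquitin ligase of muscle wasting, differed by -1.83 (SE 0.24; adjusted p 0.0037) and Mst1, which encodes macrophage-stimulating protein, by -1.99 (SE 0.31; adjusted p 0.00842). Lack of overlap between the arrays was a condition for naming these genes.

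Others in this direction were less stable. Sncg, a synuclein, differed by -2.80 (SE 0.59; adjusted p 0.0447), and its call was lost without any one of the facial arrays (0.0847 to 0.134), dorsal array 1 (0.107) or dorsal array 2 (0.0915). Adgrg2, an adhesion receptor, was below background in facial SKPs and at 4.56, 5.69 and 7.25 in dorsal arrays, at least 4.86-fold higher there (adjusted p 0.0406), and its call was lost without any one of the facial arrays (0.0837 to 0.123) or dorsal array 2 (0.0627). Bace2, a membrane protease of pigment and pancreatic cells, differed by -1.98 (SE 0.34; adjusted p 0.0157; 0.0739 without facial array 3).

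Among signalling genes, the Wnt modulators Dkk2, Sfrp2 and Rspo1 and the ligands Areg and Bmp7 were higher in facial SKPs, and the ligand Fgf10 was lower. Of 28 genes on the Wnt pathway list, 3 rose and none fell (median 0.13), against 0.793% and 0.462% of all genes, and 1 was called with the 6 arrays alone. Dkk2, which binds Wnt co-receptors, was at 10.10, 9.70 and 8.66 in facial and 6.70, 5.6 and 5.07 in dorsal arrays (3.70, SE 0.51; 13-fold; adjusted p 0.00437). Sfrp2, a secreted Wnt-binding protein of the dermal papilla, was at 8.97, 10.13 and 9.63 against 6.25, 6.94 and 7.88 (2.55, SE 0.36; adjusted p 0.00482). Both had all facial arrays above all dorsal arrays. Rspo1, which strengthens Wnt signalling, differed by 1.49 (SE 0.23; adjusted p 0.00842; 0.0872 without both arrays numbered 3). Wnt16, a Wnt ligand outside the list that was named after its values were seen, was at 6.73, 7.60 and 6.46 against 8.19, 8.36 and 8.62 (-1.46, SE 0.27; adjusted p 0.0254). The Wnt16 call was lost without facial array 1 (0.0807), facial array 3 (0.0952) or dorsal array 3 (0.0798). Axin2 (0.83) and Lef1 (0.84), which Wnt signalling induces in many cells, were not called.

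FGF and EGF pathway genes moved in both directions, with 2 of 28 higher and 1 lower (median 0.13), against 0.793% and 0.462% of all genes. Fgf10, a mesenchymal growth factor that acts on epithelium, was at 7.90, 8.65 and 7.91 in facial and 10.33, 10.38 and 9.75 in dorsal arrays (-2.0, SE 0.24; 4.01-fold; adjusted p 0.00152). The related Fgf7 differed by -1.14 and was not called. Areg, a ligand of the EGF receptor, was at 6.96, 8.56 and 7.69 against 5.05, 4.98 and 4.62 (2.85, SE 0.32; 7.20-fold; adjusted p 0.00116). Neither Fgf10 nor Areg had overlapping arrays. Spred1, an inhibitor of Ras signalling, differed by 0.99 (SE 0.17; adjusted p 0.0153), and its call was lost without facial array 1 (0.0566) or facial array 3 (0.0647). Egfr itself differed by 2.13 and was not called.

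Of 25 BMP and TGF-beta pathway genes, Bmp7 rose and none fell (median 0.23), against 0.793% and 0.462% of all genes. This BMP ligand was at 10.33, 10.36 and 9.73 in facial and 8.74, 8.69 and 7.28 in dorsal arrays (1.90, SE 0.35; adjusted p 0.0237), without overlap, and its call was lost without facial array 1 (0.073) or facial array 2 (0.0727). Of 17 retinoid handling genes, Aldh1a2 rose (median 0.06), against 0.793% of all genes called higher. This enzyme, which makes retinoic acid, was at 5.05, 5.73 and 6.71 against 3.62, 4.11 and 3.62 (2.04, SE 0.32; adjusted p 0.00964), and the dorsal arrays were near background. Hedgehog (9) and Notch (16) pathway genes had none called, with medians of -0.07 and 0.12.

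Of 20 inflammatory cytokines and chemokines, Cxcl14 rose and none fell, against 0.793% and 0.462% of all genes. The list median was 0.47. Without dorsal array 3 it was 0.01, and 2 were called lower, against 0.427% of all genes. Cxcl14, a chemokine made by fibroblasts, was at 8.08, 8.56 and 8.01 in facial and 5.31, 5.45 and 5.40 in dorsal arrays (2.83, SE 0.19; 7.11-fold; adjusted p 1.09e-05). The arrays of each group agreed closely, facial array 3 was not the highest, and the ventral mean was 7.97. The difference was 2.66 to 2.94 with single arrays or both arrays numbered 3 left out. The Ccl2 (1.15), Il6 (0.26) and Cxcl12 (1.00) differences were not called.

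Several receptors of axon guidance, which also steer neural crest migration, were higher in facial than in dorsal SKPs. Of 35 ligands and receptors measured, 5 rose and none fell, against 0.793% of all genes called higher, with a median difference of 0.04. Ephb1 was at 5.50, 7.12 and 6.64 in facial and 4.25, 3.84 and 3.76 in dorsal arrays (2.47, SE 0.34; adjusted p 0.0047; 0.06 without both arrays numbered 3). Epha7 was at 6.32, 7.41 and 6.44 against 4.66, 4.67 and 3.81 (2.34, SE 0.38; adjusted p 0.0113; 0.0643 without both). Neither ephrin receptor had overlapping arrays. Unc5a, a netrin receptor, differed by 0.94 (SE 0.15; adjusted p 0.00964) and Efnb2, an ephrin ligand, by 0.64 (SE 0.13; adjusted p 0.0303). The Efnb2 call was lost without facial array 2 (0.0829), facial array 3 (0.0705), dorsal array 2 (0.0548) or dorsal array 3 (0.0852). Nrp1, a receptor of semaphorins and VEGF, differed by 2.02 (SE 0.43; adjusted p 0.0489), and its call was lost without any single one of the 6 arrays (0.0736 to 0.167). Ventral SKPs had means of 9.92 for Nrp1 and 5.71 for Unc5a, near the facial means of 9.45 and 5.65. The ventral means of 4.12 for Ephb1 and 5.24 for Epha7 were nearer the dorsal means of 3.95 and 4.38. Leaving out 1 array left 3 or 4 of the list called higher, against 68 to 149 of all 14506 genes. Without dorsal array 1, 1 of the list was also called lower, against 69 of all genes. Leaving out both arrays numbered 3 left 1 called higher, against 0.427% of all genes.

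Among markers of nerve cells and glia, 1 gene of each list rose, against 0.793% of all genes called higher. Gap43, a growth cone protein, was at 6.62, 7.84 and 6.46 in facial and 5.03, 4.75 and 4.72 in dorsal arrays (2.14, SE 0.30; adjusted p 0.00482), 1 of 13 Schwann and glial markers. Map2, a microtubule protein, differed by 2.63 (SE 0.51; adjusted p 0.0287), 1 of 14 neuronal markers, and its call was lost without any one of the facial arrays (0.0638 to 0.0914), dorsal array 2 (0.0671) or dorsal array 3 (0.0798). The other members of both lists were not called, with medians of -0.03 and -0.13 over each whole list. Of the 14 neuronal markers, 3 had the higher mean in facial SKPs. Facial arrays lay above all dorsal arrays for 1 and below them for 3, against 7.05% and 10.3% of all genes. Those below included Tubb3 (-1.10) and Nefm (-2.19, with dorsal arrays at 4.25, 3.79 and 8.15). Of the 13 glial markers, 6 had the higher facial mean, 2 lay above without overlap and 1 below.

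Of 21 fibrillar and dermal matrix genes, Col14a1 and Col11a1 rose, against 0.793% of all genes called higher. The list median was 0.43, and -0.07 without dorsal array 3. Col14a1, a fibril-associated collagen, was at 11.30, 10.38 and 9.99 in facial and 8.13, 8.60 and 7.05 in dorsal arrays (2.63, SE 0.41; adjusted p 0.00964), without overlap. Col11a1, a fibrillar collagen of cartilage and developing tissue, was at 7.36, 7.50 and 7.82 against 6.21, 5.63 and 5.23 (1.87, SE 0.35; adjusted p 0.0262), and its call was lost without any one of the facial arrays (0.0525 to 0.107), dorsal array 2 (0.0546) or dorsal array 3 (0.0815). Col1a1 (0.56), Col3a1 (1.49) and Eln (1.91) were not called.

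**Figure D5:**
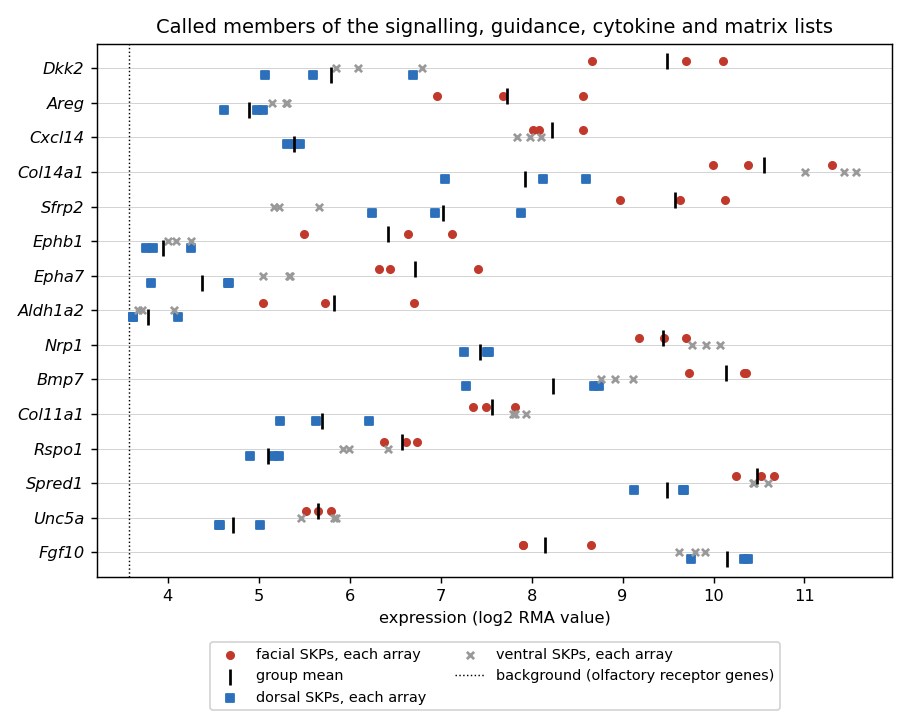
Level of the called members of the Wnt, BMP, FGF, retinoid, guidance, cytokine and matrix lists that the rule names (horizontal axis, log2 RMA value) in each facial (red), dorsal (blue) and ventral (grey) array, with facial and dorsal means as black bars and background as a dotted line. Fgf10 is the gene with facial arrays to the left of the dorsal ones, and the others have them to the right.

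Of the 12 genes of the fixed set that were measured, Pax3, Vcam1 and Tbx15 were called, as given above, and 9 were not. These 9 (Sox2, Nes, Snai2, Twist1, Ngfr, Vcan, Crabp1, Cd44 and Thy1) were above background in both groups. The 95% confidence interval of the difference was -1.01 to 0.43 for Sox2, a pluripotency and dermal papilla factor, -0.73 to 1.69 for Nes, an intermediate filament of neural precursors, -0.47 to 1.67 for Snai2 and -0.99 to 0.72 for Twist1. It was -0.43 to 0.81 for Ngfr, the low-affinity neurotrophin receptor, 0.03 to 1.84 for Vcan, and -1.43 to 2.53 for Crabp1, a retinoic acid binding protein. The intervals of Sox2, Nes, Snai2, Vcan, Crabp1 and Thy1 include differences of over 1 unit, so equality was not shown. That of Vcan leaves out 0 although its limma adjusted p was 0.327. Crabp1 was at 13.27, 13.06 and 9.68 in dorsal arrays and at 12.51 to 12.63 in facial arrays, and dorsal array 3 alone was low. The stromal surface proteins Thy1 (-0.38 to 1.88) and Cd44 (-0.07 to 0.75) were not called either. Sox9 was not measured.

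Of 23 dermal papilla and dermal sheath markers, Sfrp2 rose, Fgf10 fell and 21 were not called (median 0.03). Of all genes, 0.793% were called higher and 0.462% lower. Markers of melanocytes (8 measured), keratinocytes (11), skeletal muscle (16), smooth muscle and pericytes (16), fat (11), and bone and cartilage (19) had no called member, with medians between -0.12 and 0.09. Interferon-stimulated genes (18) had none called and a median of 0.30, and MHC class II genes (10) none called and 0.38. Of the melanocyte list, Mlana (-2.13) and Kit (-2.0) had the largest differences without being called.

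Ventral SKPs offer a second trunk region beside these genes. The differences of facial and of dorsal SKPs from ventral SKPs had 958 (6.6%) and 886 (6.11%) genes called, and they share arrays with each other and with facial minus dorsal, so the values are only set side by side. For Hoxa5 facial SKPs differed from ventral SKPs by -3.54 and dorsal SKPs by -0.29. For Pax3 the same differences were 4.66 and 0.22, for Cdh6 3.71 and -0.46, and for Tnfsf11 3.73 and 0.25. In these genes facial SKPs were the group apart. For Zic1 they were -0.01 and 4.19, for Mab21l1 -0.20 and -5.30, and for Cxcl14 0.25 and -2.58, and here dorsal SKPs were the group apart. Of the 115 genes called higher in facial SKPs the ventral mean was nearer the dorsal one for 70 (60.9%), of the 67 called lower for 36 (53.7%), and of all genes for 50.1%.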

How the data were processed

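Each sample was hybridised to an Affymetrix Rat Gene 1.0 ST array. The authors deposited log2 expression values made with RMA at the gene-core level in Affymetrix Expression Console, per the labels and the submitters' processing notes, which also name limma; the sources used here give no versions. RMA equalizes the arrays' distributions, so a shift common to most genes would not be seen. RNA was extracted with Trizol and RNeasy columns, per the labels' protocols. Array medians were 4.91 to 5.01. Arrays give no read depth, and their number limits the precision.

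Of 29215 probe sets, 15310 had 1 gene symbol in the platform annotation, 323 several and 13582 none; only the first kind was used. Symbols were updated through Entrez identifiers (15279) and accessions (6), 25 were kept and 2 changed. For 527 genes with several probe sets the brightest over 13 arrays was taken, leaving 14506 genes with no filter on low levels. Group means of facial, dorsal and ventral SKPs and MSCs were fitted with limma 3.58.1 in R 4.3.3 (moderated, two-sided, 9 residual degrees of freedom before moderation), with Benjamini-Hochberg adjustment over all genes. The script was tested on simulated data. At an unadjusted p under 0.05, 2101 genes passed.

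Genes were named by a rule: the 15 largest differences in each direction among called genes that differed by 1 or more (log2), without overlap of arrays and with the higher mean above background; up to 4 called members of each list; and a fixed set. For the 15 per direction, lack of overlap was therefore fixed by the rule. Hoxb4, Efnb2, Zic4, Wnt16 and list members given as not called were named after their values were seen. The comparison, the 32 gene lists and the rule were chosen with earlier results of these data known. A fold given as "at least" sets the mean of the brighter group against the background of the dimmer group. Alternatives were a fit of the 6 arrays alone, other moderation, array weights, a replicate block, median centring, a background filter, averaged probe sets and left-out arrays. Same-numbered facial and dorsal arrays had correlations of their deviations from group means of -0.09, 0.20 and -0.12. Differently numbered arrays had correlations from -0.27 to 0.29. Deviations from means of 3 arrays depend on each other, so these values cannot decide whether the numbers pair the samples. The labels do not say.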

Additional observations from a re-analysis of the deposited data

Results flagged for a closer look

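Probe sets that carry no single gene name were left out of the comparison, and some differed all the same. In a limma fit over all 29215 probe sets, 13905 had several symbols or none, and of these 23 were called higher and 19 lower in facial SKPs (0.302%). Probe set 10899606 had levels of 3.54, 3.4 and 4.27 in facial and 7.88, 8.13 and 7.49 in dorsal arrays (-4.10, SE 0.43; adjusted p 0.00104). Probe set 10899603 differed by -3.30 (SE 0.54; adjusted p 0.0195). Among those higher in facial SKPs, 10867142 differed by 2.30 (SE 0.42; adjusted p 0.0353) and 10751115 by 2.07 (SE 0.33; adjusted p 0.0172). The annotation given here does not name them.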

How the results depend on the processing

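With limma on the 6 facial and dorsal arrays alone, 43 genes were called, 28 higher and 15 lower in facial SKPs, 34 of them among the 182. With the replicate number as a block, 106 were called, 72 higher and 34 lower, 98 of them among the 182. Whether the numbers pair the samples is not known. Without both arrays numbered 3, 99 were called, 62 higher and 37 lower. Leaving out 1 array gave 94 to 258 genes, 68 to 149 higher and 26 to 139 lower. The remaining settings (trended robust moderation, array weights, median centring, a background filter, averaged probe sets) gave 173 to 206. Of the 57 named called genes, none changed direction under any setting run; 35 were called however arrays were left out, and 21 were called with 6 arrays. Median centring ended the calls of Tbx15, Tbx3, Osr2 and Nrp1. The causes of these shifts were not tested, and 3 isolates per region limit every comparison.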

Other observations

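Other genes called in the comparison fall outside the naming rule and were chosen after their values were seen. Pou3f4, a POU-domain transcription factor of inner ear mesenchyme and brain, was at 5.94, 6.40 and 6.31 in facial arrays and at 3.58, 3.55 and 3.58 in dorsal arrays, where it was below background (measured difference 2.65, SE 0.18; limma adjusted p 1.32e-05). Its ventral mean was 3.17. Hlx, a homeobox factor of visceral mesenchyme, was at 7.04, 7.49 and 7.70 against 6.04, 5.58 and 5.49 (1.71, SE 0.22; adjusted p 0.003).

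Alcam, an adhesion molecule, differed by 1.91 (SE 0.31; adjusted p 0.012; 0.0533 without facial array 3), Timp3, an inhibitor of matrix proteases, by 2.54 (SE 0.43; adjusted p 0.0145; 0.0629 without both arrays numbered 3) and Stc1, a secreted glycoprotein, by 2.84 (SE 0.48; adjusted p 0.0145; 0.0545 without facial array 2). Lyve1, a hyaluronan receptor of lymphatic endothelium and some macrophages, was at 7.88, 5.94 and 6.78 in facial and 4.56, 4.62 and 4.28 in dorsal arrays (2.38, SE 0.37; adjusted p 0.00863; 0.0789 without both arrays numbered 3). In the other direction, Irx1, an Iroquois homeobox factor, differed by -1.59 (SE 0.33; adjusted p 0.0444). The Irx1 call was lost without any one of the facial arrays (0.0892 to 0.149).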
